A study of Mus musculus with 6 samples.

Results

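Messenger RNA of 9 high mobility group (HMG) genes was followed in hearts of mice that received dexmedetomidine or vehicle before ischaemia and reperfusion. The genes were Hmgn1, Hmgn2, Hmgn3 and Hmgn5 of the HMGN family, Hmgb1, Hmgb2 and Hmgb3 of the HMGB family, and Hmga1 and Hmga2 of the HMGA family. They are 9 of the 37620 genes in the count table. The set was chosen by the difference in Hmgn5 counts between these same libraries. Values of Hmgn5 are therefore given as a description, and no call on it in any fit counts as a test. The other 8 genes were taken for their family membership.

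HMG proteins are small, abundant chromatin proteins without enzymatic activity. HMGN proteins bind the nucleosome core itself, compete with linker histone H1 and loosen chromatin packing. HMGB proteins bend DNA through HMG-box domains, and HMGA proteins grip the minor groove of AT-rich DNA through short AT-hook motifs. In injured hearts HMGB1 is best known outside the nucleus, as an alarm signal that dying cells release and that Toll-like receptors and the receptor RAGE detect. HMGN5 is the X-linked member of its family and has a long acidic tail, and its forced expression in mice loosens chromatin and deforms the nuclei of heart muscle cells.

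All animals were wild-type mice of the C57/BL6J strain, and all hearts underwent 30 min of ischaemia and 120 min of reperfusion. The dexmedetomidine group received the vehicle of yohimbine, 30 min later 10 µg/kg of dexmedetomidine, which activates alpha-2 adrenergic receptors, and 20 min after that the surgery. The vehicle group received the vehicles of yohimbine and of dexmedetomidine, each given separately before surgery, at times the labels do not state. Yohimbine blocks the same receptors, and infusions went into the tail vein within 10 min. Tissue came from the apex of the heart, with 3 libraries in each group. Age and sex of the animals are not given in the labels, and no heart without ischaemia belongs to the comparison.

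Gene counts summed to 48.6, 42.7 and 43.3 M (M, 1e6 reads) in dexmedetomidine libraries 1 to 3, against 56.6, 50.3 and 51.4 M in vehicle libraries 1 to 3. Transcripts of the mitochondrial genome took 27.1%, 36.9% and 38.2% of gene counts in dexmedetomidine libraries, against 25.2%, 22.0% and 23.3% in vehicle libraries. Vehicle library 2 stood apart on the first principal component, at 69.8, with the other libraries between -46.6 and 26.3. Summed cardiomyocyte markers lay at 37436 to 40756 counts per 1e6 (CPM) in dexmedetomidine libraries and at 41506 to 48413 CPM in vehicle libraries, so the tissue carried its labelled identity. Fibroblast markers summed to 914 to 1198 CPM with dexmedetomidine and 798 to 913 CPM with vehicle, and mural cell markers to 1224 to 1406 CPM with dexmedetomidine and 923 to 1034 CPM with vehicle. Markers of endothelium, macrophages, neutrophils, lymphocytes and erythroid cells overlapped between the groups. The sums rest on few genes, since 6 of 8 tested cardiomyocyte markers were lower, 4 of 6 fibroblast markers higher and 4 of 6 mural markers lower, with Rgs5 carrying the mural sum. The part of these differences in the results on the HMG genes was not tested. In bulk tissue, fewer cells of a type and less RNA per cell cannot be told apart.

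Dexmedetomidine library 3 was far above the other libraries in Myl7 and Myl4, transcripts of atrial muscle. Myl7 stood at 0.0195, 0 and 11.9 CPM in dexmedetomidine libraries 1 to 3 and at 0 CPM in all vehicle libraries. Myl4 had 1.91, 0.770 and 25.2 CPM with dexmedetomidine and 1.76, 1.35 and 1.37 CPM with vehicle. The summed atrial list ran from 7.52 to 59.9 CPM with dexmedetomidine and from 15.3 to 31.5 CPM with vehicle, and Bmp10 was listed at 0 in all libraries. Listed genes other than Myl7 and Myl4 thus made up most of the vehicle sums. Of the 5 atrial genes 2 were tested, with 1 higher and 1 lower. Adipocyte markers summed to 0.272 to 2.54 CPM with dexmedetomidine, highest in the same library, and to 0 to 0.882 CPM with vehicle. Without dexmedetomidine library 3 the log2 fold changes were 1.78 for Hmgn5, 0.84 for Hmgn3, 0.19 for Hmgn1, -0.0171 for Hmgn2, 0.22 for Hmgb1, 0.21 for Hmgb2, -0.22 for Hmgb3 and -0.58 for Hmga1, all with the sign they had in the full set of libraries.

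The mouse HMGN genes resemble each other in sequence, so their coding sequences show how far a read could be mistaken for one of a relative. The first 60 coding bases of Hmgn5 and Hmgn2 are shown because they hold the longest run that any pair of the 4 HMGN coding sequences shares. Sequences are from the GENCODE M21 transcripts of GRCm38, 5′ to 3′, and capitals mark the 19 shared bases.
Hmgn5: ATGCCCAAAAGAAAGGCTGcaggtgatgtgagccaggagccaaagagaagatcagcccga
Hmgn2: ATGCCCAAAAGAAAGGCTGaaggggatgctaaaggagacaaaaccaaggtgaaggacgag
The run starts at the start codon, and the sequences part directly after it. Hmgn5 shared at most 14 bases with Hmgn1 and 13 with Hmgn3. Among the HMGB genes the longest run was 27 bases, between Hmgb1 and Hmgb3, and is shown with its neighbouring coding bases.
Hmgb1: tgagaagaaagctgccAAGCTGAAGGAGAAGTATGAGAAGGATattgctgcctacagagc
Hmgb3: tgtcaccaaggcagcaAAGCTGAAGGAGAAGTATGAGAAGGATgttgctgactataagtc
Hmga1 and Hmga2 shared 10 bases at most. Within each family these runs were shorter than 50 bases, the word length at which transcripts were compared with those of all other genes.

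Processed copies and one close paralog were a larger source of ambiguity than the relatives. For Hmgn5, 351 of 1885 words of 50 bases, or 18.6%, also occurred in 1 pseudogene, Gm11914. That pseudogene held 56, 26 and 39 counts in dexmedetomidine libraries and 26, 6 and 22 in vehicle libraries, far under the counts of Hmgn5. The share was 67.1% for Hmgn2, with Gm10282 as its main copy. Gm10282 held 311, 156 and 166 counts with dexmedetomidine and 302, 364 and 487 with vehicle. It was 69.1% for Hmga1, mostly through the near-identical gene Hmga1b, which was listed at 0 in all libraries. Reads without a unique alignment were credited to no gene. Low counts of a copy such as Gm11914 or Hmga1b therefore cannot show how many reads were ambiguous. Hmgb1 shared 40.9% of its words with 132 genes, of which 130 are annotated as pseudogenes, Hmgb3 shared 34.2% and Hmgb2 21.9%. The counts of these genes are uncertain to that extent, while Hmgn1 at 6.54%, Hmga2 at 4.36% and Hmgn3 at 3.80% had little overlap. Hmgb1 and Hmga1 also lie opposite the genes Uspl1 and AI413582, and whether counting used strand is not given in the sources used here.

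Hmgn5 (ENSMUSG00000031245, chromosome X) has the longest coding sequence of its family, 1221 bases, against 273 to 291 bases for Hmgn1, Hmgn2 and Hmgn3. It received 912, 447 and 713 reads in dexmedetomidine libraries and 237, 159 and 318 in vehicle libraries. Scaled to library size, these were 17.7, 11.5 and 18.3 CPM with dexmedetomidine and 4.05, 3.20 and 5.50 CPM with vehicle. Every dexmedetomidine library lay above every vehicle library, with dexmedetomidine library 2 the lowest of its group. Means were 15.8 ± 3.80 CPM with dexmedetomidine and 4.25 ± 1.16 CPM with vehicle (SD, n = 3 each), and the fitted log2 fold change was 1.90 with a standard error (SE) of 0.25, or 3.72-fold. In the order of all 14738 tested genes by log2 fold change, Hmgn5 stood at place 104. These values led to its choice, and all values of Hmgn5 from this comparison, here and further on, are a description.

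The other nucleosome-binding HMGN members lay much closer to vehicle. Hmgn1, which promotes open chromatin at enhancers and promoters, had 34.0, 30.2 and 27.8 CPM in dexmedetomidine libraries, against 27.4, 29.7 and 27.5 CPM in vehicle libraries. The groups overlapped, and the log2 fold change was 0.12 (95% confidence interval -0.13 to 0.37, edgeR adjusted p = 0.618). Hmgn2, the most abundant HMGN transcript here, had 41.9, 44.6 and 39.9 CPM with dexmedetomidine and 40.8, 49.99 and 40.5 CPM with vehicle. Its groups overlapped too, with a log2 fold change of -0.06 (95% confidence interval -0.31 to 0.20, edgeR adjusted p = 0.844), and 0.11 with the correction for GC content and length given further on.

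Hmgn3, whose product controls glucose transporter genes in mouse pancreatic beta cells, was the least abundant HMGN transcript. Its level was 3.56, 3.49 and 1.88 CPM in dexmedetomidine libraries, against 1.79, 1.67 and 2.42 CPM in vehicle libraries. Dexmedetomidine library 3 lay among the vehicle libraries while the other two lay above them. The log2 fold change was 0.60 (95% confidence interval -0.04 to 1.24, edgeR adjusted p = 0.316).

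Hmgb1, the nuclear DNA bender that doubles as an alarm signal, was the most abundant HMGB transcript. It had 92.7, 93.0 and 88.1 CPM in dexmedetomidine libraries and 76.1, 76.0 and 86.4 CPM in vehicle libraries. The groups did not overlap, but the nearest libraries were less than 2 CPM apart. The log2 fold change was 0.20 (SE 0.11, edgeR adjusted p = 0.336), and -0.52 once a trend with GC content and length, described further on, was removed. The transcript level says nothing of the release of the protein, which is not measured here.

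Hmgb2, which accompanies proliferating cells, had 9.75, 10.5 and 12.3 CPM in dexmedetomidine libraries and 7.31, 8.48 and 10.5 CPM in vehicle libraries. The highest vehicle library lay within the dexmedetomidine range, and the log2 fold change was 0.30 (SE 0.19, edgeR adjusted p = 0.375), and -0.51 with that trend removed. Hmgb3, an X-linked gene known for its part in blood stem cells, ran the other way. It had 30.0, 23.1 and 24.6 CPM in dexmedetomidine libraries, against 31.2, 31.1 and 30.9 CPM in vehicle libraries. All dexmedetomidine libraries lay below all vehicle libraries, although dexmedetomidine library 1 was close to them. The log2 fold change was -0.26 (SE 0.13, edgeR adjusted p = 0.295).

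Hmga1, an architectural factor of growing cells, was the member with the largest negative value. It had 51.9, 33.3 and 33.3 CPM in dexmedetomidine libraries and 56.6, 81.3 and 52.7 CPM in vehicle libraries. The groups did not overlap, but dexmedetomidine library 1 nearly reached the lowest vehicle library, and vehicle library 2 was far above its group. Means were 39.5 ± 10.7 CPM with dexmedetomidine and 63.5 ± 15.5 CPM with vehicle (SD, n = 3 each), a log2 fold change of -0.68 (SE 0.22, edgeR adjusted p = 0.137). DESeq2 and limma-voom placed Hmga1 past the threshold, with adjusted p-values of 0.0338 and 0.0246. After the correction for GC content and length the log2 fold change was -0.29, and the DESeq2 adjusted p was 0.459. With 1 library left out it ran from -0.93 without dexmedetomidine library 1 to -0.47 without vehicle library 2.

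Hmga2, a gene of embryonic and dividing cells, was almost silent in these hearts. It received 6, 4 and 7 reads in dexmedetomidine libraries and 0, 1 and 6 in vehicle libraries. It failed the filter on low counts and was not tested, which left 8 of the 9 members, and the groups overlapped. No fold change is given for it.

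**Figure D1:**
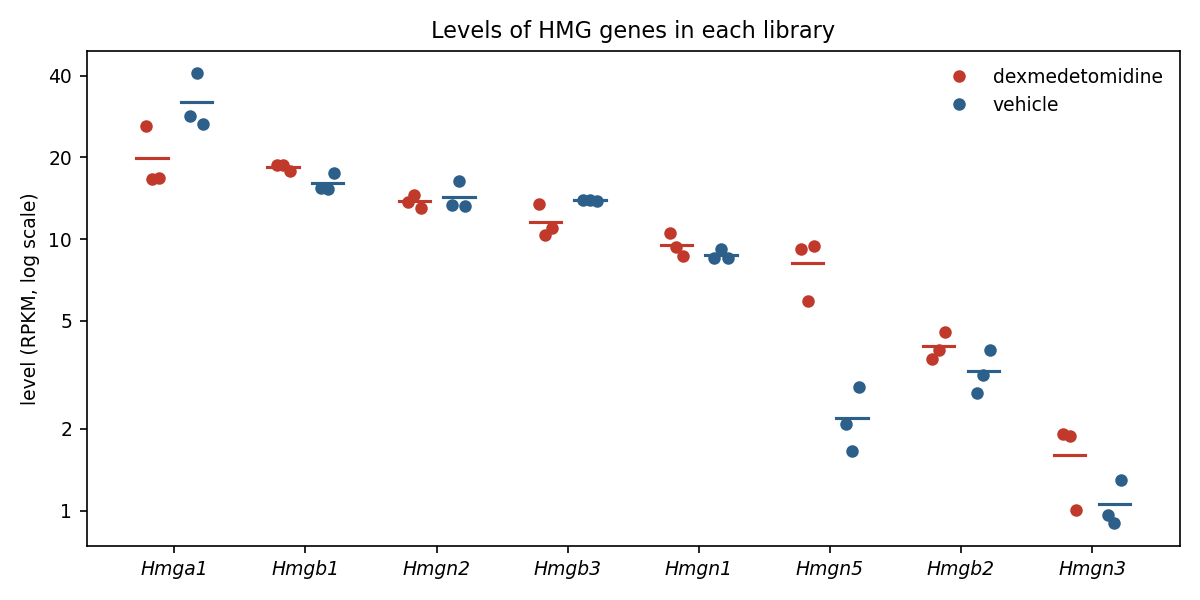
Level of each tested HMG gene in each library, in reads per kilobase of gene length per 1e6 (RPKM) on a log axis, with dexmedetomidine libraries left of vehicle libraries, bars at the group means and Hmga2 left out. Hmgn5 averaged 8.19 RPKM with dexmedetomidine and 2.20 RPKM with vehicle, the largest ratio among the genes drawn.

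Levels of different genes were compared per kilobase of the deposited gene length. On that length Hmga1 was the highest member, at 19.9 ± 5.40 RPKM in dexmedetomidine libraries and 31.9 ± 7.79 RPKM in vehicle libraries (SD, n = 3 each). Hmgb1 followed with 18.5 ± 0.554 RPKM in dexmedetomidine libraries and 16.1 ± 1.21 RPKM in vehicle libraries. Under dexmedetomidine these members did not differ beyond their spread, because Hmga1 libraries ran between 16.7 and 26.1 RPKM and Hmgb1 libraries between 17.8 and 18.8 RPKM. Hmgn2 came next, at 13.8 ± 0.767 RPKM with dexmedetomidine and 14.3 ± 1.76 RPKM with vehicle. Hmgb3 had 11.6 ± 1.62 RPKM with dexmedetomidine and 13.9 ± 0.0692 RPKM with vehicle, and its libraries overlapped those of Hmgn2. Hmgn1 had 9.52 ± 0.962 RPKM with dexmedetomidine and 8.75 ± 0.407 RPKM with vehicle.

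Hmgn5 took place 6 of 9 in dexmedetomidine hearts and place 7 of 9 in vehicle hearts. With dexmedetomidine its libraries, at 9.17, 5.93 and 9.47 RPKM, overlapped those of Hmgn1 and lay above those of Hmgb2. With vehicle, at 2.09, 1.66 and 2.84 RPKM, they overlapped those of Hmgb2. Hmgb2 averaged 4.03 ± 0.482 RPKM with dexmedetomidine and 3.26 ± 0.610 RPKM with vehicle. Hmgn3 averaged 1.60 ± 0.513 RPKM with dexmedetomidine and 1.06 ± 0.216 RPKM with vehicle, and Hmga2 stayed at or below 0.0266 RPKM in each library.

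The order at the top depended on the length used. Per kilobase of the longest coding transcript, an alternative chosen after seeing the data, Hmgn2 led with 33.3 ± 1.86 RPKM in dexmedetomidine libraries and 34.6 ± 4.26 RPKM in vehicle libraries. Hmgb1 then had 32.2 ± 0.965 RPKM with dexmedetomidine and 28.0 ± 2.11 RPKM with vehicle, and Hmga1 19.7 ± 5.37 RPKM with dexmedetomidine and 31.7 ± 7.75 RPKM with vehicle. Hmgn5 kept place 6 with dexmedetomidine and place 7 with vehicle.

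The makeup of the HMGN pool moved with Hmgn5, as follows from the value that chose it. Hmgn5 made up 26.0%, 18.7% and 29.5% of summed HMGN RPKM in dexmedetomidine libraries, against 8.40%, 5.89% and 11.0% in vehicle libraries. The pool as a whole was at 97.2, 89.7 and 87.9 CPM with dexmedetomidine and 74.1, 84.6 and 75.9 CPM with vehicle. Without Hmgn5 it was 79.4, 78.2 and 69.6 CPM with dexmedetomidine and 70.01, 81.4 and 70.4 CPM with vehicle, which overlapped. Hmgn2 and Hmgn1 thus remained the bulk of HMGN transcripts in both groups. Summed HMGB transcripts were 132, 127 and 125 CPM with dexmedetomidine and 115, 116 and 128 CPM with vehicle, and overlapped.

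Counted over the members, none of the 8 tested genes passed an adjusted p of 0.05 in edgeR's quasi-likelihood test, and neither did any of the 14738 genes (0%). The smallest adjusted p over all genes was 0.101. At an unadjusted p below 0.05, 2 members were found, Hmgn5 and Hmga1, against 21.5% of all tested genes. The same 2 genes passed in DESeq2, where 8.63% of all genes were called, and in limma-voom, where 14.3% were. Libraries of the groups were fully separate for 4 of 8 members (Hmgn5 and Hmgb1 higher, Hmgb3 and Hmga1 lower), against 27.6% of all genes. Hmgn5 chose the set and is among each of these counts, so they are given as a description. The median log2 fold change of the 8 members was 0.16, with 5 higher and 3 lower, beside a median of 0.00321 over all genes, with 7408 higher and 7330 lower.

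**Figure D2:**
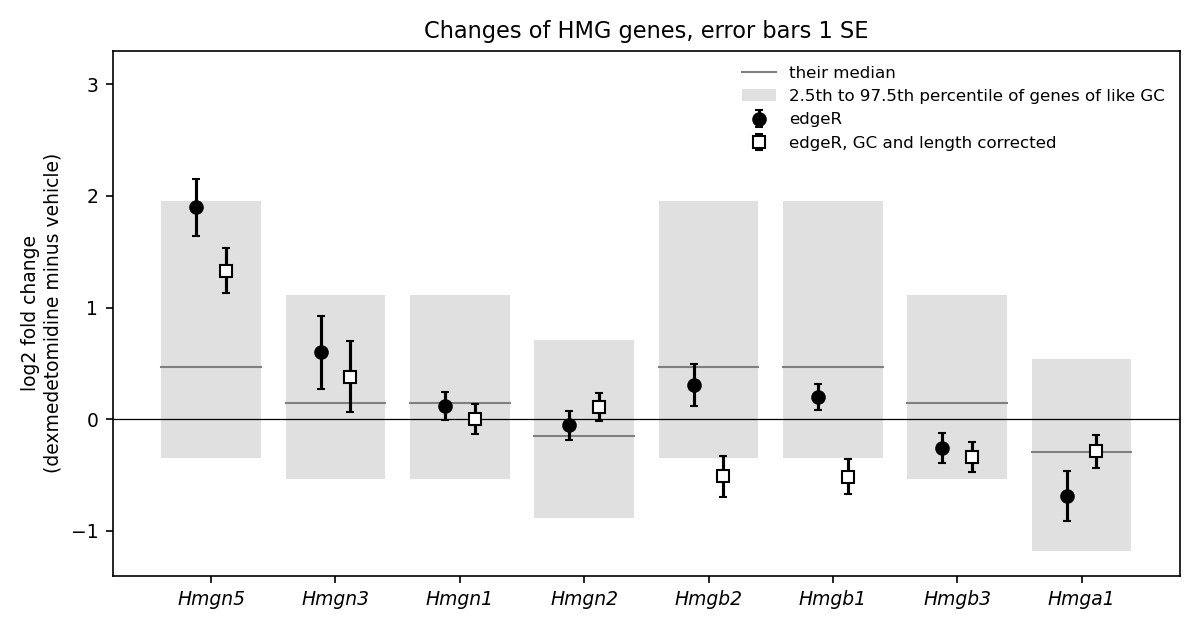
Log2 fold change, dexmedetomidine minus vehicle, of each tested HMG gene with 1 SE, from edgeR without and with a correction for GC content and deposited gene length. Grey bars span the central 95% of uncorrected values of genes in the same GC quintile and the line marks their median, and Hmgn5 lies near the upper end of its bar.

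Base composition moved with the comparison across the whole transcriptome, and the members spread over its range. Across the 14329 tested genes with a known GC content, the log2 fold change fell with GC content (Spearman rho -0.63 across genes, which are not independent replicates and share the same 6 libraries). The median was 0.47 in the quintile of genes poorest in GC and -0.30 in the richest quintile. Hmgn5 at 40.7% GC, Hmgb1 at 40.1% and Hmgb2 at 38.7% belonged to the poorest quintile. Hmga1 at 61.4% belonged to the richest quintile and Hmgn2 at 54.2% to the fourth, with Hmgn1, Hmgn3 and Hmgb3 in the second.

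Set against genes of like composition, the members fell into another order. Within its quintile, 79 of 2866 genes had a larger log2 fold change than Hmgn5, which stood 1.43 above the median of that quintile. For Hmgb1 and Hmgb2, 2159 and 1859 genes of the same quintile were higher, so both sat below its median although they were above vehicle. Hmga1 and Hmgb3 stood below most of their own quintiles as well, where 2559 and 2629 genes were higher. Hmgn3 stood above most of its quintile, where 299 genes were higher. For Hmgn1 and Hmgn2, 1549 and 989 genes of their quintiles were higher.

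**Figure D3:**
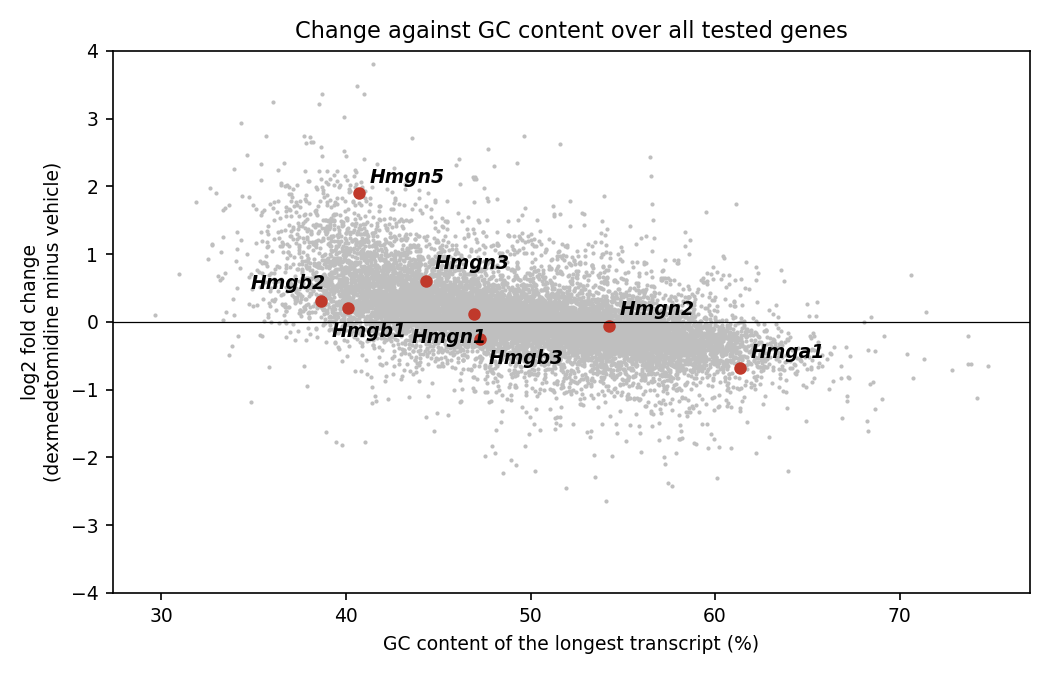
Log2 fold change, dexmedetomidine minus vehicle, against the GC content of the longest transcript for 14327 tested genes (grey, 2 more lie outside the axis) with the HMG genes marked. The cloud slopes down from a median of 0.47 in the poorest quintile to -0.30 in the richest, and Hmgn5 sits near its upper edge while Hmgb1 and Hmgb2 sit in its lower part.

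When the trend with GC content and length was removed from each library, Hmgn5 kept the largest value of the members, at a log2 fold change of 1.33 with an SE of 0.20, and place 156 among all genes. Relative to the corrected vehicle mean, its log2 level was 1.58, 0.91 and 1.41 higher in dexmedetomidine libraries, against -0.09, -0.11 and 0.20 in vehicle libraries. Hmgb1 turned to -0.52 (SE 0.16) and Hmgb2 to -0.51 (SE 0.18), with dexmedetomidine libraries below all vehicle libraries for both. The direction of these HMGB genes therefore depended on the correction. Hmgn2 also changed sign, to 0.11, and Hmgn1 came to 0.00398. Hmgb3 stayed lower at -0.34 (SE 0.13), Hmga1 moved to -0.29 (SE 0.15) and Hmgn3 to 0.38 (SE 0.32).

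After correction the libraries were fully separate for 4 of 8 members (Hmgn5 higher, Hmgb1, Hmgb2 and Hmgb3 lower), against 17.4% of all genes. With DESeq2 on corrected values 1 member was called, Hmgn5, where 1.89% of all genes were. Hmgn5 chose the set in these same libraries, so this call is a description and lends it no support. The corrected median over the members was -0.14, with 4 higher and 4 lower, beside -0.03 over all genes, with 6730 higher and 8008 lower. Whether GC content itself or RNA quality lies behind the trend was not tested. Of the other 7 tested members, none had a log2 fold change beyond 1 in either direction, with or without the correction, and Hmgn5, which chose the set, was beyond 1 in both.

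Neighbouring genes on chromosome X were examined beside Hmgn5. The next rows of the count table in order of position, 5730416F02Rik and Gm23322, were listed at 0 in all libraries. Gm23322, a small nuclear RNA gene, overlaps Hmgn5 on the same strand. Of the 3 rows on each side in this order, 2 were tested. The non-coding 2810403D21Rik, the closer of these, had 32, 16 and 21 counts in dexmedetomidine libraries and 49, 6 and 44 in vehicle libraries, which overlapped, with a log2 fold change of -0.13 (SE 0.67, edgeR adjusted p = 0.935). Sh3bgrl, a small thioredoxin-like protein gene, had 52.1, 57.3 and 67.5 CPM in dexmedetomidine libraries and 33.6, 17.2 and 35.9 CPM in vehicle libraries. Its log2 fold change was 1.03 (SE 0.26, edgeR adjusted p = 0.109) and came to 0.13 after the correction. Of 479 tested genes on the X chromosome, 319 were higher and 160 lower, with a median log2 fold change of 0.15, and the X-linked Hmgb3 was among the lower ones.

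All libraries carried transcripts of the Y chromosome. The 4 tested Y-linked genes lay higher in each dexmedetomidine library than in any vehicle library, as did 2300 of all 14738 tested genes. With edgeR 0 of the 4 passed the threshold, as 0 of all genes did. DESeq2 called 2 of the 4 higher, beside 880 of all genes. Ddx3y, a ubiquitous RNA helicase, had 91.9, 65.3 and 107 CPM in dexmedetomidine libraries and 26.4, 15.3 and 51.3 CPM in vehicle libraries. Its log2 fold change was 1.51 (SE 0.40, edgeR adjusted p = 0.112) and 0.61 after the correction. Over the 4 genes the median was 1.05, and after the correction 0.21 with Eif2s3y turned to -0.14. Xist, the RNA that silences an X chromosome in females, stayed at or below 0.283 CPM in each library. The part of this in the values of Hmgn5 was not tested.

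The genes whose pattern over the 6 libraries was most like that of Hmgn5 were sought among 12143 genes, by the root mean square difference of centred log2 CPM. They were Samd9l (0.19), an interferon-induced gene, Nexn (0.19), an actin-binding protein of the heart muscle Z-disc, Aspn (0.19), an extracellular matrix proteoglycan, Smc2 (0.20), a condensin subunit, and Trdn (0.21), which anchors calcium release in heart muscle. All 5 were poor in GC, between 34.3% and 39.7%. Nexn had 355, 215 and 461 CPM in dexmedetomidine libraries, against 76.3, 55.2 and 127 CPM in vehicle libraries. By this measure the HMG gene most like Hmgn5 was Hmgn3, at 0.81 and place 1919. Ranked by Pearson correlation instead, the 5 leading genes were others, with 0 in common, and Hmgb1 (r = 0.87) and Hmgb2 (r = 0.74) came before Hmgn3 (r = 0.60), each over the same 6 libraries and with no test.

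Related chromatin genes were read from lists of textbook members. Since 0 of all 14738 tested genes passed the edgeR threshold, a count of 0 past it does not set a list apart. Of 29 tested HMG-box proteins outside the HMGB family, 10 were higher and 19 lower, beside 7408 higher and 7330 lower over all genes. With edgeR 0 passed the threshold, and the median log2 fold change was -0.14. After the correction 8 were higher and 21 lower, beside 6730 higher and 8008 lower over all genes. DESeq2 without the correction called 1 higher and 2 lower, where it called 8.63% of all genes. Sox17, a transcription factor of endothelium, had 30.1, 24.4 and 27.8 CPM with dexmedetomidine and 39.5, 49.4 and 47.5 CPM with vehicle. Its log2 fold change was -0.73 (SE 0.14, edgeR adjusted p = 0.101) and -0.63 after the correction. Ubtf, which opens ribosomal RNA genes, had -0.36 (edgeR adjusted p = 0.135), Cic, a repressor below growth factor signalling, had -0.41 (edgeR adjusted p = 0.112) and Bbx had 0.68 (edgeR adjusted p = 0.112). After the correction Ubtf had -0.27, Cic -0.13 and Bbx 0.18.

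Of 11 listed linker histones, which HMGN proteins displace from nucleosomes, 10 were in the count table and 5 were tested. The sum of these 10 was 93.6 to 104 CPM with dexmedetomidine and 127 to 147 CPM with vehicle, nearly all of it Hist1h1c. H1f0, the gene of linker histone H1.0, is not among the 10, so the sum does not cover it. Of the tested genes 2 were higher and 3 lower, with 0 past the edgeR threshold. After the correction 3 were higher and 2 lower. Hist1h1c, the most abundant of these genes here, had 101, 91.9 and 91.6 CPM in dexmedetomidine libraries and 129, 145 and 124 CPM in vehicle libraries. All dexmedetomidine libraries lay below all vehicle libraries, at a log2 fold change of -0.48 (SE 0.12, edgeR adjusted p = 0.108) and -0.24 after the correction. Hist1h1d stayed below 1 CPM in each library, with a log2 fold change of -1.82 (SE 0.65, edgeR adjusted p = 0.153) and -2.51 after the correction. H1fx and Hils1 were near or below 1 CPM too. Histone transcripts that lack a poly-A tail are poorly caught by poly-T selection.

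Of 32 tested chaperones and remodellers of nucleosomes, 24 were above vehicle and 8 below, beside 7408 above and 7330 below over all genes. None of the 32 passed the edgeR threshold, and the median log2 fold change was 0.20. After the correction 18 were higher and 14 lower, with a median of 0.05. Atrx, a remodeller that deposits histone H3.3 and is X-linked, had 62.2, 32.7 and 86.9 CPM in dexmedetomidine libraries and 16.8, 9.69 and 27.7 CPM in vehicle libraries. Its log2 fold change was 1.74 (SE 0.43, edgeR adjusted p = 0.109) and 0.91 after the correction. The ISWI ATPases Smarca5 and Smarca1 had log2 fold changes of 0.88 and 1.59, and Chd1, which spaces nucleosomes behind transcribing polymerase, had 0.76, with edgeR adjusted p-values of 0.108, 0.114 and 0.108. After the correction Smarca5 had 0.21, Smarca1 0.86 and Chd1 0.33.

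Receptors and handlers of HMGB1 were split, with 9 of 17 higher, 8 lower, 0 past the edgeR threshold and a median log2 fold change of 0.04. After the correction 8 were higher and 9 lower. Ager, which encodes RAGE, counted among the higher genes at 0.06 (SE 1.02) but received only 0 to 19 reads per library. Tlr4, the Toll-like receptor that senses HMGB1, had 30.1, 40.7 and 48.1 CPM with dexmedetomidine and 24.3, 18.9 and 22.8 CPM with vehicle. Its log2 fold change was 0.85 (SE 0.18, edgeR adjusted p = 0.101) but 0.03 after the correction. Xpo1, the exporter that carries HMGB1 out of the nucleus, had 0.85 (edgeR adjusted p = 0.101) and 0.18 after the correction, and Sirt1, a deacetylase, had 0.49 (edgeR adjusted p = 0.118) and 0.15 after it. Thbd, the thrombomodulin gene whose product binds HMGB1, had 229, 219 and 207 CPM with dexmedetomidine and 288, 420 and 248 CPM with vehicle. Its log2 fold change was -0.55 (SE 0.18, edgeR adjusted p = 0.142) and -0.50 after the correction.

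Of 9 listed genes tied to Hmga1 and Hmga2 expression, all in the count table, 5 passed the filter on low counts. Of these, 4 were higher, 1 lower and 0 past the edgeR threshold. Myc, which drives Hmga1 transcription, was the lower one, at 37.2, 35.3 and 34.0 CPM in dexmedetomidine libraries and 56.2, 98.8 and 34.4 CPM in vehicle libraries. As for Hmga1, vehicle library 2 was the highest. The log2 fold change of Myc was -0.83 (SE 0.33, edgeR adjusted p = 0.194) and -0.69 after the correction. Dicer1 had 0.28 (0.0772 after the correction), Igf2bp2 0.32 (0.25 after it) and Mycn 0.27 (0.43 after it), with overlapping groups.

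Proliferation genes, which Hmgb2 and Hmga1 usually accompany, were higher for 15 of 16, with 0 past the edgeR threshold and a median of 0.11. After the correction 9 were higher and 7 lower. Mki67, the Ki-67 gene of cycling cells, had 7.02, 3.05 and 5.86 CPM with dexmedetomidine and 1.43, 0.766 and 3.94 CPM with vehicle, and the groups overlapped. Its log2 fold change was 1.37 (SE 0.57, edgeR adjusted p = 0.216) and 1.19 after the correction. Rrm2, Top2a and Mcm7 had 0.37, 0.24 and 0.18, and after the correction 0.20, -0.16 and 0.28.

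**Figure D4:**
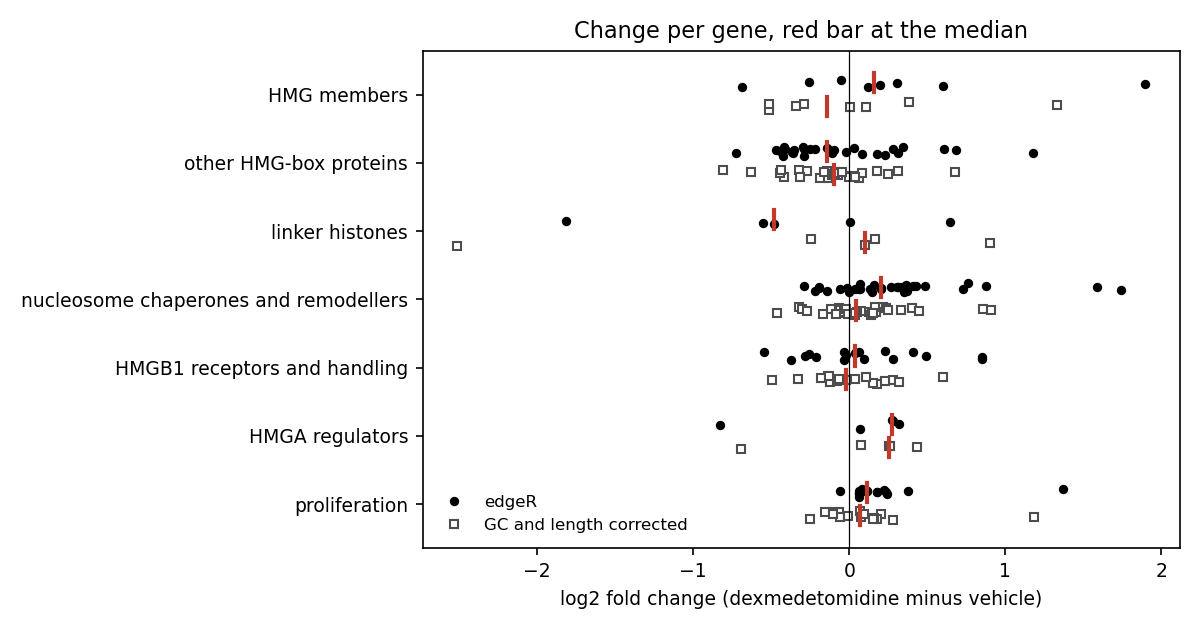
Log2 fold change, dexmedetomidine minus vehicle, of each tested gene in the HMG set and in 6 lists of related genes, without and with the correction for GC content and length, with a red bar at each median. Medians without the correction run from -0.48 for linker histones to 0.27 for HMGA regulators, and Hmgn5 is the highest point of the HMG set in both fits.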

How the data were processed

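The authors deposited 1 table of raw read counts per gene, with the length of each gene. The submitters' processing notes name HTSeq and Trim Galore and, as genome build, mm9. For versions, aligner, annotation and strand setting the sources used here give nothing. Per the labels' protocols, polyadenylated RNA was selected from 1 µg of RNA and libraries were made with an NEBNext Ultra kit. The 5 summary rows that name no gene stayed out of library sizes. Of the reads, 31.2%, 39.5% and 39.4% had no unique alignment in dexmedetomidine libraries 1 to 3, against 31.4%, 28.6% and 28.0% in vehicle libraries 1 to 3. The part of this difference in the values of members with many copies was not tested. Of 37620 genes, 32897 matched a symbol in GENCODE M21 (GRCm38), which also gave transcripts and GC content, and no coordinates of it are given.

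Groups came from the labels, which do not tie each sample to an animal of its own. The p-values therefore reflect spread between samples, which may be technical. The members and lists were chosen with earlier results of these data known. Counts were tested with edgeR 4.0.16 in R 4.3.3 (TMM, filterByExpr, robust quasi-likelihood F test, Benjamini-Hochberg adjustment over 14738 genes, threshold 0.05). SE was taken as the log2 fold change over the root of F. CPM used TMM-scaled library sizes, and RPKM divided CPM by the deposited length. Log2 CPM had a prior count of 2. Alternatives were DESeq2 1.42.0, limma 3.58.1 (voom) and offsets for GC content and length from smooth fits in mgcv 1.9.3. Counting error alone is small for genes with counts like those of most members, so replicate spread sets the precision. Chi-square per degree of freedom between libraries was 23.6 to 360, so each counted as 1 sample.

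All 9 members are named. From each list up to 4 tested genes with the smallest edgeR p are named, and Ager because RAGE is named in the background. Also named are the 5 genes most like Hmgn5 at a mean of 1 CPM or more and the nearest genes beside it. Rows with counts whose symbols belong to these families are named too. Of 15 rows of such names that are no member, 8 were at 0 in all libraries, Hmgb1-ps1 to Hmgb1-ps6 held at most 8 counts in a library, and Hmgn2-ps1 held 12, 20 and 14 with dexmedetomidine and 18, 18 and 30 with vehicle.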

Additional observations from a re-analysis of the deposited data

How the results depend on the processing

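Directions of Hmgn3, Hmgn5, Hmgb3 and Hmga1 were the same under all alternatives run that tested them (Hmgn3 was not tested at a mean CPM of 5 or more). Genes past the threshold numbered 0 with edgeR, 406 without a filter on low counts, 1272 with DESeq2, 2107 with limma-voom, 278 with DESeq2 after the GC and length correction, and 0 to 1251 when 1 library was left out, with 1251 without vehicle library 3, 7 without dexmedetomidine library 1 and 5 without dexmedetomidine library 2. Of the members, 1 passed without a filter, 2 with DESeq2 (8.63% of all genes) and 2 with limma-voom (14.3%). With corrected DESeq2 1 passed (1.89% of all genes), and with a library left out 0 to 1. Hmgn5, which chose the set, was among the members in each setting with a call, so these counts are a description. Hmgn5's log2 fold change was 1.89 without a filter, 1.89 with DESeq2, 1.86 with limma-voom, 1.33 with corrected edgeR or DESeq2, and 1.73 to 2.13 with a library left out.

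Same-numbered libraries had correlations of -0.05, 0.04 and 0.15 after each group was centred. Libraries 3 were each other's best match and libraries 1 were not. Of libraries 2, only the dexmedetomidine library matched its own number best. With 3 libraries per group these values cannot show whether replicate numbers pair the samples. With the replicate number as a block, 636 of 14738 genes and 1 member passed, with Hmgn5 at 1.90. With the block and the correction together 160 of 14738 genes and 1 member passed, with Hmgn5 at 1.32. In both fits the member was Hmgn5, again as a description. Signs turned with the correction for Hmgn2 (0.11 with edgeR, DESeq2 or the block), Hmgb1 (-0.52 with edgeR and DESeq2, -0.51 with the block) and Hmgb2 (-0.51 with edgeR and DESeq2, -0.49 with the block), and for Hmgn1 with the block (-0.00045). Hmgn2 also turned with limma-voom (0.00677) and without vehicle library 2 (0.0502, in a range of -0.11 to 0.0502 with 1 library left out). Proliferation genes above vehicle numbered 9 of 16 with the correction and 15 of 16 without it. The cause was not tested. Depth limited Hmga2, at 0 to 7 reads per library, and Hmgn3, at 73 to 183.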
